A study of Mus musculus with 46 samples.

Results

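The first antibody dose was followed in 10 of the 46 samples of the study: 5 MC-38 tumors from mice given 1 dose of the PD-1 Ab muDX400 and 5 tumors from mice given 1 dose of isotype control Ab. The tumors were taken by their replicate-group label, which names the antibody, 1 dose and 4 days of treatment, and all 10 were used. MC-38 is a mouse colon carcinoma line. The hosts were labelled WT in both groups, were female and 8 to 10 weeks old in the methods of the study, and received the cells under the skin of the right flank. They were randomized on day 7 after implant and dosed into the peritoneum, the PD-1 Ab at 5 mg/kg, and the tumors were excised 4 days later, at day 11. The dose of the isotype control Ab was not given in the sources used here. The other samples of the study were cultured MC-38 cells, baseline tumors, tumors after a second antibody dose at day 15, and tumors of PD-1cKO and WT mice given tamoxifen. RNA of whole tumors was measured by RNA-seq, so a change in the number of cells of a type and a change in RNA per cell cannot be told apart here.

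PD-1, the product of Pdcd1, is an inhibitory receptor that activated T cells display, and its ligands PD-L1 (Cd274) and PD-L2 (Pdcd1lg2) are carried by myeloid cells and, for PD-L1, by many tumor cells. Engagement of PD-1 dampens signaling through the T cell receptor and CD28, and an antibody that blocks it releases cytotoxicity and secretion of interferon-γ (IFN-γ). IFN-γ acts on tumor, stromal and myeloid cells and induces chemokines, antigen presentation, GTPases of cell-autonomous defense and the PD-1 ligands themselves.

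One isotype tumor stood apart before any comparison was made. In isotype replicate 1, genes encoded by the mitochondrial genome held 54.6% of the FPKM (fragments assigned to a gene, scaled to its length and to the sequenced total), against 3.45% to 4.44% in the other 9 tumors. Its deposited FPKM summed to 818006, against 440865 to 457894, and 12304 genes reached 0.5 FPKM in it, against 14002 to 14505. FPKM were therefore divided by a median-of-ratios factor per tumor, which was 0.410 for isotype replicate 1 and 1.09 to 1.13 for the others, and all values below are such scaled FPKM. Its median correlation with the tumors of its own group was 0.875 on the log2 scale, against 0.964 to 0.971 in the others. The tests below are given with all 10 tumors and with the 9 tumors left without it, while means and SDs are of 5 tumors a group. The sample identifiers also fall into runs of numbers. Isotype replicates 1 to 3 lie in a lower run than isotype replicates 4 and 5 and all 5 PD-1 Ab tumors. What these runs stand for is not stated in the sources used here.

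Across all 10 tumors, no gene of 14555 tested (0%) passed an adjusted p under 0.01 with a 2-fold change in limma, and 1447 had an unadjusted p under 0.05, of which 1037 were higher in PD-1 Ab tumors and 410 lower. At an adjusted p under 0.05 with no fold limit, 15 genes were higher (0.103%) and 0 were lower. They were Il1rn, Ccl8, Tarm1, Adam8, Pdcd1lg2, Pecam1, Xdh, Lgals3, Arg1, Serping1, Ly6c1, Gpr171, Gbp5, Ctsb and Gzmb. The 15 depended on the tumors used: 0 passed without PD-1 Ab replicate 2, 4 or 5, 5 to 8 without isotype replicate 2, 3 or 5 or PD-1 Ab replicate 3, 11 without PD-1 Ab replicate 1, 28 without isotype replicate 4 and 166 without isotype replicate 1. Without isotype replicate 1, 11 of 14601 genes were called at the stricter limits, all higher (0.0753%). At an adjusted p under 0.05, 149 were then higher (1.02%) and 17 lower (0.116%). These included all 15 genes of the 10-tumor comparison, and 5 of the 11 called genes were among those 15 (Ccl8, Ly6c1, Pdcd1lg2, Il1rn and Tarm1). With the identifier run as a covariate, 0 genes passed an adjusted p under 0.05 with 10 tumors (629 at an unadjusted p under 0.05, smallest adjusted p 0.274), and 8 passed with 9 tumors. For all 15 genes, every PD-1 Ab tumor was above every isotype tumor in the comparison of 10 tumors. The same therefore had to hold against the 2 isotype tumors of the run that also holds the PD-1 Ab tumors. The median log2 fold change of the 15 genes was 1.18 within that run and 1.10 over the 10 tumors.

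Counted without a model, every PD-1 Ab tumor was above every isotype tumor for 400 genes (2.75% of those tested) and below every isotype tumor for 137 genes (0.941%). Without isotype replicate 1 these counts were 649 (4.44%) and 370 (2.53%). The balance depended on the scaling: with FPKM as deposited, 522 genes lay above and 9 below, and the median log2 fold change of all genes was 0.26 in place of 0.01.

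The ligands of PD-1 and the enzymes that regulate immune cells were higher throughout. For each of the 6 genes of this list, every PD-1 Ab tumor was above every isotype tumor in the 10 tumors, against 2.75% of all tested genes. Leaving out isotype replicate 1 could hardly change this (4.44% of all tested genes with 9), so it is no second result. The median log2 fold change of the list was 1.37 with 10 tumors and 1.46 with 9. Pdcd1lg2, which encodes PD-L2, was at 0.582, 1.44, 1.72, 1.41 and 0.518 scaled FPKM in isotype replicates 1 to 5 and at 5.32, 13.2, 6.58, 10.1 and 12.3 in PD-1 Ab replicates 1 to 5. The groups did not overlap, and PD-1 Ab replicates 1 and 3 were the lowest of the treated tumors. Its log2 fold change was 3.01 (SE 0.37, adjusted p 0.0154) with 10 tumors and 2.84 (SE 0.35, adjusted p 0.00743) with 9. Within the shared identifier run it was 3.24 (SE 0.43). Cd274, which encodes PD-L1, was at 18.6, 15.4, 19.9, 21.3 and 10.7 scaled FPKM in isotype tumors and at 34.5, 43.6, 29.7, 31.97 and 46.5 in PD-1 Ab tumors. It was higher throughout, but its log2 fold change of 1.13 (SE 0.20) had an adjusted p of 0.0691 with 10 tumors and passed only without isotype replicate 1 (1.17, SE 0.20, adjusted p 0.0283). Both ligand genes lie on chromosome 19, Pdcd1lg2 at chr19:29410919-29471161 on the plus strand (GRCm38).

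The enzymes of that list include arginase 1 and nitric oxide synthase, which use arginine in macrophages. Arg1, arginase 1, was at 6.65, 20.9, 6.93, 11.1 and 15.8 scaled FPKM in isotype tumors and at 76.9, 33.2, 57.0, 57.4 and 70.3 in PD-1 Ab tumors, a log2 fold change of 2.34 (SE 0.33, adjusted p 0.037) with 10 tumors and 2.16 (SE 0.31, adjusted p 0.0147) with 9. Nos2, the inducible nitric oxide synthase, was at 8.19 ± 2.26 (SD, n = 5) in isotype tumors and 18.4 ± 3.80 (SD, n = 5) in PD-1 Ab tumors, with an adjusted p of 0.0691 with 10 tumors and 0.0212 with 9. Ido1, which degrades tryptophan, was at 2.41 ± 1.42 and 6.03 ± 1.296 (SD, n = 5 each) and did not pass at either size of group (adjusted p 0.269 and 0.105).

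**Figure D1:**
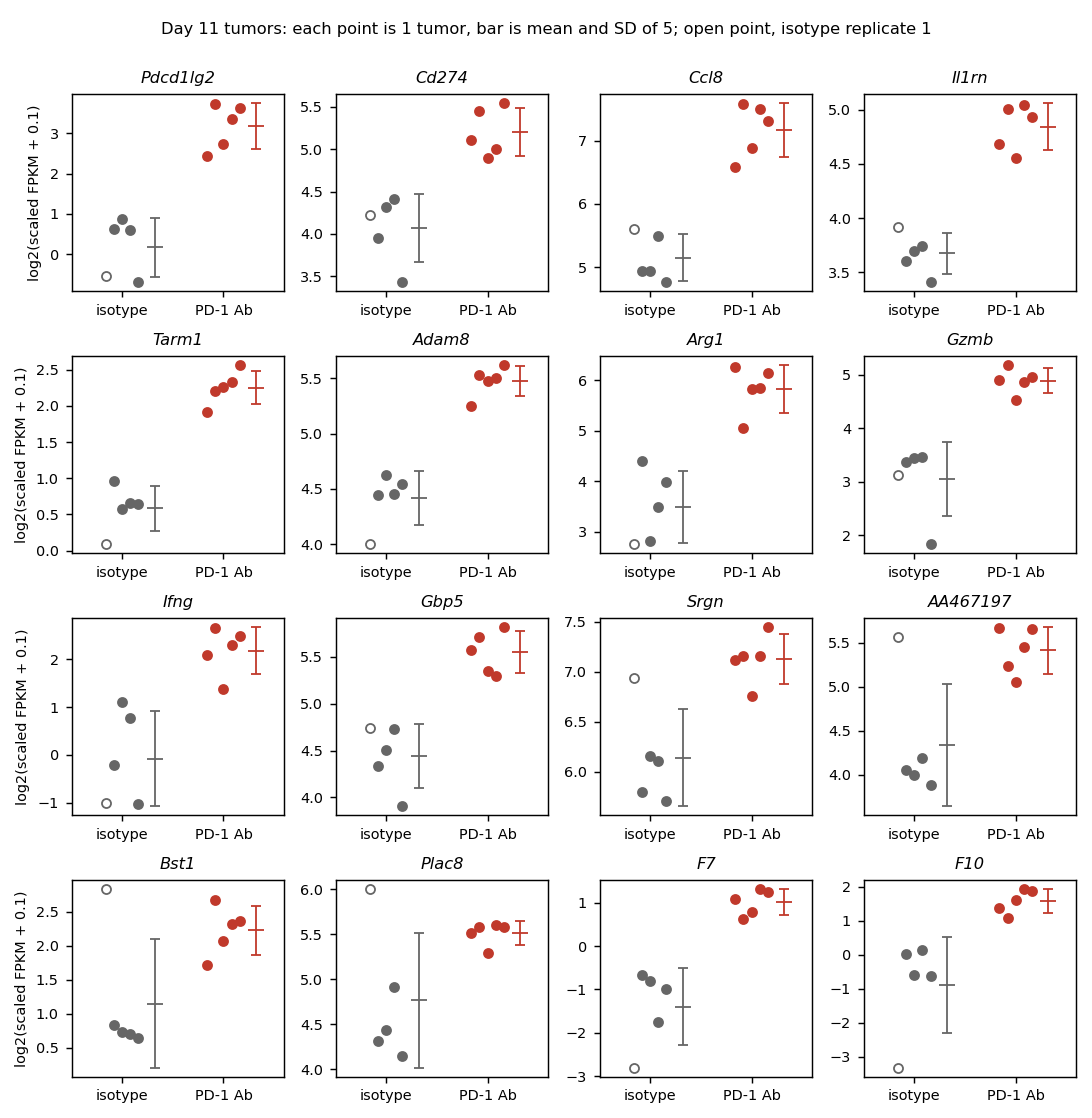
Level of 16 genes in each day 11 tumor on the log2(scaled FPKM + 0.1) scale, with isotype tumors in grey and PD-1 Ab tumors in red. Bars give the mean and SD of the 5 tumors of each group, and the open point is isotype replicate 1, which lies with the PD-1 Ab tumors for Srgn, AA467197, Bst1 and Plac8 and at the bottom for F7 and F10.

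Among genes that myeloid cells are known for, Ccl8, Il1rn, Tarm1 and Adam8 rose. Ccl8, a chemokine that attracts monocytes, was at 48.4, 30.7, 30.7, 44.9 and 27.0 scaled FPKM in isotype tumors and at 95.8, 190.4, 118.2, 179.8 and 158.2 in PD-1 Ab tumors. The lowest treated tumor, replicate 1, was above the highest isotype tumor, and the log2 fold change was 2.02 (SE 0.22, adjusted p 0.0102) with 10 tumors and 2.13 (SE 0.21, adjusted p 0.00241) with 9. Il1rn, the antagonist of the interleukin-1 receptor, was at 15.1, 12.02, 12.9, 13.3 and 10.5 in isotype tumors and at 25.7, 32.1, 23.3, 32.9 and 30.4 in PD-1 Ab tumors. Its groups were also apart, with a log2 fold change of 1.17 (SE 0.13, adjusted p 0.0102), and of 1.23 (SE 0.11, adjusted p 0.00197) without isotype replicate 1. Tarm1, an activating receptor of myeloid cells, rose from 1.43 ± 0.312 to 4.71 ± 0.769 (SD, n = 5 each, adjusted p 0.0102). Adam8, a surface metalloprotease of leukocytes, rose from 21.5 ± 3.32 to 44.5 ± 4.07 (SD, n = 5 each, adjusted p 0.0116). In the 9 tumors both had an adjusted p of 0.00197. Ccl8 was not typical of its list of monocyte-attracting and neutrophil-attracting chemokines: of 9 tested members 4 had a positive log2 fold change, the median was -0.004 (-0.11 with 9 tumors), and 1 was higher and 2 lower at an unadjusted p under 0.05. Csf3, the growth factor G-CSF of neutrophils, was the lowest of them, at -2.02 (SE 0.68, adjusted p 0.325) and -2.10 (SE 0.74, adjusted p 0.197) with 9 tumors.

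The rest of the 15 genes include products of macrophages, lysosomes and vessels. Lgals3, which encodes galectin-3, was at 176.1, 173.4, 139.2, 183.3 and 159.6 scaled FPKM in isotype tumors and at 249.6, 266.3, 253.4, 269.9 and 294.4 in PD-1 Ab tumors, a log2 fold change of 0.69 (SE 0.095, adjusted p 0.0335, and 0.00705 with 9 tumors). Ctsb, the lysosomal protease cathepsin B, had a log2 fold change of 0.63 (SE 0.098, adjusted p 0.0497, and 0.00743 with 9), and Xdh, xanthine dehydrogenase, one of 0.87 (SE 0.12, adjusted p 0.0335, and 0.012 with 9). Serping1, the C1 inhibitor of the complement cascade, rose from 25.2 ± 5.09 to 60.0 ± 13.8 (SD, n = 5 each, adjusted p 0.0406, and 0.0198 with 9 tumors). Pecam1, the adhesion molecule CD31 of endothelium, platelets and leukocytes, rose from 7.21 ± 1.23 to 13.9 ± 1.56 (SD, n = 5 each, adjusted p 0.0335, and 0.0098 with 9 tumors). It was the only member of the endothelium list that passed: the other 10 tested members had log2 fold changes between -0.09 (Emcn) and 0.96 (Vwf), and the median of the list was 0.30, or 0.15 without isotype replicate 1. Ly6c1, a surface antigen, was at 56.2, 39.9, 47.1, 58.9 and 31.4 in isotype tumors and at 94.5, 107.8, 87.1, 93.7 and 106.8 scaled FPKM in PD-1 Ab tumors (adjusted p 0.0406, and 0.00789 with 9 tumors). Of its transcript stretches of 50 bases, 32.8% also occur in other genes, most often in Ly6c2, so fragments of these genes may be hard to assign. Gpr171, a G protein-coupled receptor, rose from 3.89 ± 0.483 to 8.44 ± 1.92 (SD, n = 5 each, adjusted p 0.0441, and 0.0176 with 9 tumors). The genes Arg1, Ctsb, Serping1, Gpr171 and Gbp5 were named after their values were seen.

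The other genes called without isotype replicate 1 fell into those in which that tumor was high and those in which it was low. Srgn, the serglycin proteoglycan of secretory granules, was at 122.2 scaled FPKM in isotype replicate 1, at 55.7, 71.1, 68.6 and 52.3 in the other isotype tumors and at 138.5, 142.7, 107.7, 142.4 and 174.3 in PD-1 Ab tumors. With 9 tumors its log2 fold change was 1.18 (SE 0.13, adjusted p 0.00611), and with 10 it was 0.98 (SE 0.22, adjusted p 0.122). AA467197 was at 47.1 in isotype replicate 1 and at 14.6 to 18.2 in the other 4, against 33.2 to 50.7 in PD-1 Ab tumors (adjusted p 0.00197 with 9 tumors, 0.205 with 10). Bst1, the ectoenzyme CD157, was at 7.03 in isotype replicate 1 and at 1.47 to 1.68 in the other 4, against 3.18 to 6.25 (adjusted p 0.00648 and 0.378). Plac8 followed the same order, with 64.1 in isotype replicate 1, 17.7 to 30.1 in the other 4 and 39.0 to 48.7 in PD-1 Ab tumors (adjusted p 0.00779 and 0.426). In these 4 genes the call rests on leaving that tumor out.

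The coagulation factor genes F7 and F10 lie next to each other on chromosome 8, at chr8:13026034-13035809 and chr8:13037308-13056676 on the plus strand (GRCm38), and had the opposite pattern. F7, factor VII, was at 0.0429, 0.535, 0.475, 0.199 and 0.407 scaled FPKM in isotype tumors and at 2.02, 1.44, 1.62, 2.39 and 2.26 in PD-1 Ab tumors. F10, factor X, was listed at 0 in isotype replicate 1, was at 0.916, 0.559, 0.995 and 0.551 in the other isotype tumors, and at 2.51, 2.02, 2.93, 3.71 and 3.53 in PD-1 Ab tumors. Every PD-1 Ab tumor was above every isotype tumor for both. With 9 tumors the log2 fold changes were 2.08 for F7 (SE 0.26, adjusted p 0.00743) and 1.85 for F10 (SE 0.24, adjusted p 0.00743), and with 10 tumors the adjusted p were 0.0691 and 0.143. F7 entered the test only through the PD-1 Ab tumors, with a mean of 1.95. Its isotype mean was 0.332 (0.404 without isotype replicate 1), below the limit of 0.5.

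Genes of lymphocytes were higher on average but varied widely between tumors of a group. All 12 tested cytotoxic effectors had a positive log2 fold change, and 7 of them had every PD-1 Ab tumor above every isotype tumor (58.3%, against 2.75% of all genes). The median of the list was 1.89, and 1.82 without isotype replicate 1. Gzmb, which encodes the protease granzyme B, was at 8.67, 10.2, 10.8, 10.9 and 3.47 scaled FPKM in isotype tumors and at 29.6, 36.2, 22.98, 29.0 and 31.2 in PD-1 Ab tumors, so that the groups were apart and isotype replicate 5 was low. It was the one member to pass with 10 tumors (log2 fold change 1.84, SE 0.29, adjusted p 0.0497, and 0.0236 with 9 tumors). Without isotype replicate 1 it was joined by the granzymes Gzmd, Gzme and Gzmf, with log2 fold changes of 2.34 (SE 0.36), 1.86 (SE 0.30) and 2.24 (SE 0.38). In that fit 1.02% of all tested genes were higher at an adjusted p under 0.05 in limma. Prf1, the pore-forming perforin, was at 0.155, 2.64, 3.56, 3.24 and 0.461 in isotype tumors and at 4.50, 11.0, 5.12, 8.49 and 8.19 in PD-1 Ab tumors. The groups did not overlap, yet its log2 fold change of 2.39 (SE 0.71) had an adjusted p of 0.254, and of 0.116 with 9 tumors. Ifng itself was at 0.397, 0.760, 2.05, 1.61 and 0.392 in isotype tumors and at 4.13, 6.19, 2.50, 4.79 and 5.46 in PD-1 Ab tumors (log2 fold change 2.25, SE 0.44, adjusted p 0.0845 with 10 tumors, and 2.03, SE 0.41, adjusted p 0.0486 with 9). Of the transcript stretches of Ifng, 19.9% also occur in the annotated gene Gm49751. The other cytokines of activated T cells did not follow it: 4 of 7 tested members were positive, Ifng included, 1 had an unadjusted p under 0.05 and the median was 0.02 (0.13 with 9 tumors), with Il10 lowest at -0.28, and Csf2 lowest at -0.71 with 9.

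Genes of T cell identity and receptor signaling did not pass the test at day 11. Of 19 tested genes of T cell identity and receptor signaling, 17 had a positive log2 fold change. The median was 1.17 (1.204 without isotype replicate 1). At an unadjusted p under 0.05, 15 were higher, against 1037 of all 14555 tested genes, and 0 had an adjusted p under 0.05. Cd3e, a chain of the T cell receptor complex, was at 0.111, 0.532, 2.21, 2.45 and 0.395 scaled FPKM in isotype tumors and at 1.71, 6.75, 4.06, 4.57 and 5.41 in PD-1 Ab tumors. PD-1 Ab replicate 1 was below isotype replicates 3 and 4, and the adjusted p was 0.226 with 10 tumors and 0.123 with 9. Cd8a, the coreceptor of cytotoxic T cells, was at 4.08, 1.70, 6.13, 5.58 and 0.853 in isotype tumors and at 3.82, 13.8, 6.04, 9.21 and 10.1 in PD-1 Ab tumors. These groups overlapped too (log2 fold change 1.39, SE 0.53, adjusted p 0.396 with 10 tumors and 0.216 with 9). Cd4 was at 1.22 ± 0.736 and 1.99 ± 0.556 (SD, n = 5 each, adjusted p 0.503, and 0.092 with 9 tumors), and Pdcd1, the target of the antibody, at 2.37 ± 1.37 and 4.89 ± 2.003 (SD, n = 5 each, adjusted p 0.457, and 0.176 with 9). Foxp3, the factor of regulatory T cells, was at 0.724 ± 0.0795 and 0.910 ± 0.289 (SD, n = 5 each, adjusted p 0.745, and 0.713 with 9), and 14.7% of its transcript stretches also occur in Flicr. All 7 tested genes of the regulatory T cell list were positive (median 0.72, and 0.68 with 9). With 10 tumors 5 of them were higher at an unadjusted p under 0.05 and 0 passed. With 9 tumors Capg and Il1rl1 passed, against 149 higher of all 14601 tested genes. Tbx21, which encodes the transcription factor T-bet, had an adjusted p of 0.403 (0.301 with 9), and the NK and T cell receptor gene Klrc1, which shares 38.6% of its stretches with other genes, one of 0.558 (0.272 with 9).

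The level of the T cell list in each tumor shows where the groups met. Its mean log2 level was -0.51 in isotype replicate 5 and -0.01 in isotype replicate 1, and 0.37, 1.07 and 1.28 in isotype replicates 2, 3 and 4. In PD-1 Ab replicates 1 to 5 it was 0.95, 2.25, 1.43, 1.91 and 1.91, so that PD-1 Ab replicate 1 fell within the isotype range. For the 13 cytotoxic effectors the isotype tumors reached 1.39 and the lowest PD-1 Ab tumor was at 1.88. The plot of list levels by tumor shows that isotype replicate 5 was also the lowest tumor for the guanylate-binding proteins, the type I interferon-stimulated genes, MHC class II and the macrophage list.

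**Figure D2:**
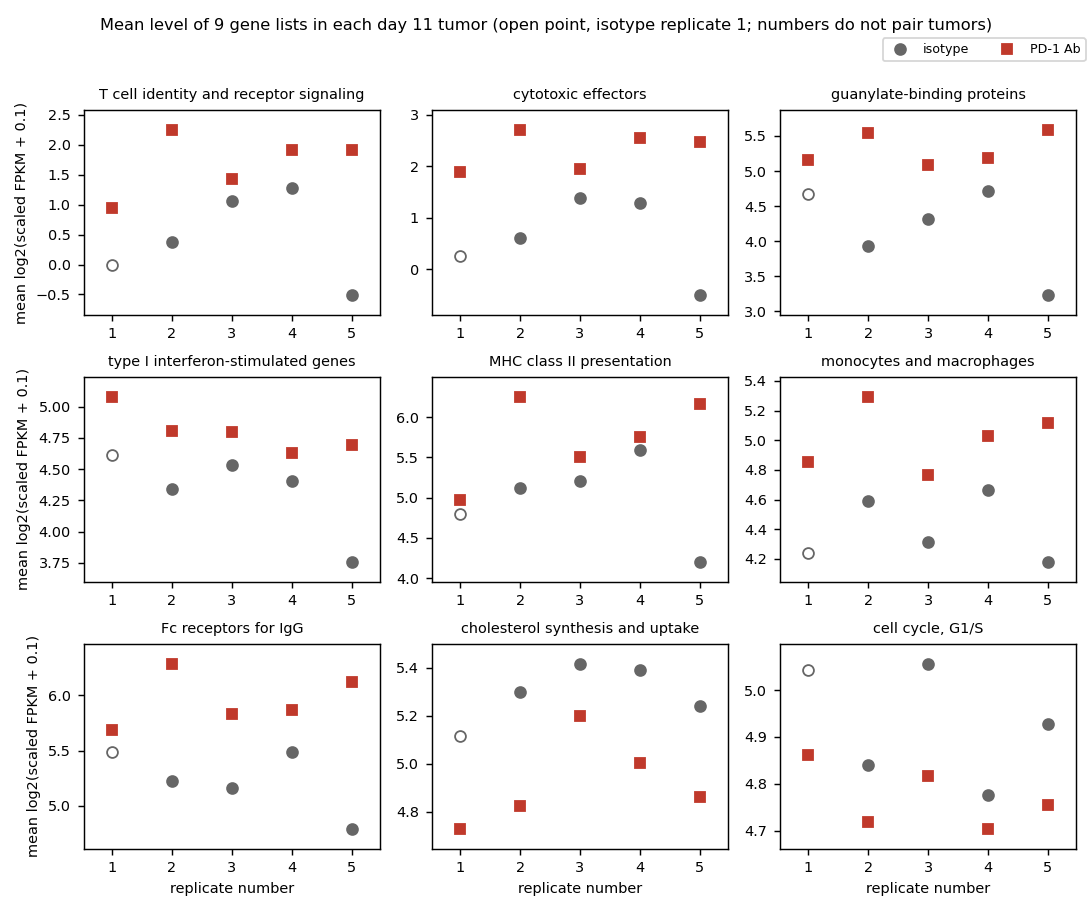
Mean of log2(scaled FPKM + 0.1) over all genes of 9 lists in each day 11 tumor, with isotype tumors as circles, PD-1 Ab tumors as squares and isotype replicate 1 open. The x axis gives the replicate number, which does not pair tumors. For the guanylate-binding proteins the lowest PD-1 Ab tumor, at 5.08, is above the highest isotype tumor, at 4.71, while for MHC class II the groups overlap.

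GTPases induced by IFN-γ were higher as families. All 11 guanylate-binding protein genes had a positive log2 fold change (median 1.17), all 11 had an unadjusted p under 0.05, and 8 had every PD-1 Ab tumor above every isotype tumor. Over all 14555 tested genes, 1037 were higher at an unadjusted p under 0.05 and 2.75% did not overlap in that direction. Gbp5 was the one that passed with 10 tumors: it was at 26.6, 20.1, 22.6, 26.4 and 14.9 scaled FPKM in isotype tumors and at 47.4, 52.1, 40.7, 39.2 and 56.3 in PD-1 Ab tumors (log2 fold change 1.10, SE 0.17, adjusted p 0.0443, and 0.0107 with 9). Without isotype replicate 1, 6 of the 11 passed (Gbp2, Gbp4, Gbp5, Gbp6, Gbp10 and Gbp11), and the median was 1.22. In that fit 149 of all 14601 tested genes (1.02%) were higher at an adjusted p under 0.05 in limma. Gbp2 was at 134.0 ± 50.3 and 299.0 ± 48.5 (SD, n = 5 each), with an adjusted p of 0.111 with 10 tumors and 0.0324 with 9. Gbp2b overlapped between the groups, at 1.78 to 16.2 in isotype tumors and 12.4 to 34.7 in PD-1 Ab tumors (adjusted p 0.38 and 0.145). All 9 immunity-related GTPases had a positive log2 fold change (median 0.88), with 0 passing with 10 tumors and Tgtp1, Irgm1 and Gm4951 with 9, where the median was 1.01. Iigp1, a member of that family, was at 123.1 ± 52.8 and 232.1 ± 27.5 (SD, n = 5 each, adjusted p 0.222 and 0.0532).

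The wider interferon response was higher by less. Irf1, a transcription factor that interferons induce, was at 132.8 ± 20.98 scaled FPKM in isotype tumors and 184.8 ± 11.1 in PD-1 Ab tumors (SD, n = 5 each, adjusted p 0.142 with 10 tumors and 0.067 with 9). All 24 type I interferon-stimulated genes had a positive log2 fold change, from 0.02 (Ddx58) to 0.72 (Zbp1), with a median of 0.49 (0.56 without isotype replicate 1) and 0 passing in either fit. Of these, 18 had an unadjusted p under 0.05 with 10 tumors and 21 with 9. Over all tested genes, 1037 of 14555 were higher at that limit with 10 tumors and 1427 of 14601 with 9. The T cell-attracting chemokines Cxcl9 and Cxcl10 were at 108.4 ± 39.6 and 131.3 ± 30.5 in isotype tumors and at 195.3 ± 31.4 and 235.7 ± 55.2 in PD-1 Ab tumors (SD, n = 5 each), without overlap and with adjusted p of 0.242 and 0.143, or 0.0748 and 0.0704 with 9 tumors. Ccl5 had an adjusted p of 0.213, and of 0.099 with 9.

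Genes of antigen presentation had positive differences that did not pass. Of 11 genes of MHC class I presentation, 10 had a positive log2 fold change with 10 tumors (11 with 9), and the median was 0.43 (0.33 with 9). Tap1, a subunit of the peptide transporter, was at 96.9 ± 35.4 and 161.0 ± 10.0 scaled FPKM (SD, n = 5 each, adjusted p 0.234, and 0.123 with 9 tumors), and Psmb9, a subunit of the immunoproteasome, at 73.0 ± 21.1 and 119.4 ± 12.6 (SD, n = 5 each, adjusted p 0.181, and 0.111 with 9). All 10 tested MHC class II genes were positive (median 0.74, and 0.70 with 9 tumors), but H2-Aa overlapped between groups, at 208.3 to 685.1 in isotype tumors and 403.6 to 1085 in PD-1 Ab tumors (adjusted p 0.484, and 0.304 with 9). None of these lists had a member that passed with 10 tumors. At an unadjusted p under 0.05, 6, 4 and 7 members were higher for MHC class I, the immunoproteasome and MHC class II. Among all 14555 tested genes, 1037 were higher at that limit.

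Promoters were searched for the letters of 2 interferon-response motifs, TTCNNNGAA (the GAS element, the gamma-activated sequence) and GAAANNGAA (the core of the ISRE, the interferon-stimulated response element), on both strands. Matches of the motifs may overlap. The RefSeq promoters span 250 bases before to 50 bases after a start site on GRCm38.p6. The windows are shown because these genes carry the interferon results above, each with the motif in capitals and 15 bases on either side, all of them before the start site. In Gbp5 the ISRE window is chr3:142496755-142496793 and the GAS window chr3:142496867-142496905, plus strand. The Gbp2 window is chr3:142620590-142620628 and the Cd274 window chr19:29367347-29367385, both plus strand. The Cxcl10 window is chr5:92349079-92349117 and the Cxcl9 window chr5:92328231-92328269, both minus strand, and the GAS window of Irf1 is chr11:53769909-53769947, plus strand.
Gbp5, ISRE: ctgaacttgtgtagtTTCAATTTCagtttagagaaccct
Gbp5, GAS: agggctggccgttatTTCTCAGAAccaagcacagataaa
Gbp2, ISRE: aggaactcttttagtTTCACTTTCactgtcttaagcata
Cd274, ISRE: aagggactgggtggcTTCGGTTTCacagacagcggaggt
Cxcl10, ISRE: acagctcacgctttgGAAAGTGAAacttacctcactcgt
Cxcl9, ISRE: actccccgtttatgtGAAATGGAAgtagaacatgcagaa
Irf1, GAS: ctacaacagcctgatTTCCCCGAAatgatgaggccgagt

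Of the tested genes, 10616 had a promoter in the table, of which 9% held the ISRE core letters and 8.36% the GAS letters. All 5 guanylate-binding protein genes with a promoter in the table held the ISRE core, as did all 6 immunity-related GTPases, of which 5 also held the GAS letters. Among 17 type I interferon-stimulated genes it was 11 (64.7%). In other lists fewer promoters held it: 2 of 9 for MHC class I presentation (0 with the GAS letters), 1 of 9 for MHC class II presentation, 1 of 5 for the immunoproteasome and 1 of 8 for IFN-γ receptor and signaling. Of the 11 genes called without isotype replicate 1, 10 had a promoter in the table, 2 of these held the ISRE core (Srgn and Tarm1) and 0 the GAS letters. In Tarm1 the window is chr7:3502672-3502710 on the minus strand and in Srgn chr10:62507954-62507992 on the minus strand. They are shown because Tarm1 passed an adjusted p under 0.05 with and without isotype replicate 1 and Srgn only without it.
Tarm1, ISRE: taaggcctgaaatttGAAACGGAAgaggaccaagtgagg
Srgn, ISRE: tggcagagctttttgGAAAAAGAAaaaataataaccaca

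Among lists of myeloid cells, those of macrophages, Fc receptors and complement had positive values in every tested member. So had those of cross-presenting dendritic cells (median 0.36, and 0.47 with 9 tumors, 0 passing in either fit) and mast cells. All 19 monocyte and macrophage genes had a positive log2 fold change, with a median of 0.60 (0.51 with 9 tumors). With 10 tumors, 15 had an unadjusted p under 0.05, against 1037 higher of all 14555 tested genes. None passed with 10 tumors, and Cd68 and Mrc1 passed with 9. C1qa, a subunit of complement C1q that macrophages secrete, was at 124.4, 285.5, 269.0, 302.9 and 171.7 scaled FPKM in isotype tumors and at 319.4, 464.1, 341.0, 336.6 and 425.6 in PD-1 Ab tumors. The groups did not overlap (log2 fold change 0.77, SE 0.24, adjusted p 0.288, and 0.133 with 9 tumors). All 6 genes of Fc receptors for IgG were positive (median 0.67, and 0.70 with 9 tumors) with an unadjusted p under 0.05, and with 9 tumors Fcgr2b and Fcgr3 passed. All 12 complement genes were positive (median 0.92, and 0.87 with 9), with Serping1 passing with 10 tumors, joined by C5ar1 and Cd55 with 9. Over all tested genes, 15 of 14555 passed as higher with 10 tumors and 149 of 14601 with 9. The list of 10 tested neutrophil genes was mixed, with 6 positive: S100a8, a calprotectin subunit, was at 2.05 ± 2.28 and 1.44 ± 1.41 (SD, n = 5 each, adjusted p 0.999, and 0.575 with 9 tumors), while Retnlg had a log2 fold change of 2.18 (SE 0.48, adjusted p 0.122), and of 2.45 (SE 0.45, adjusted p 0.0322) with 9 tumors.

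**Figure D3:**
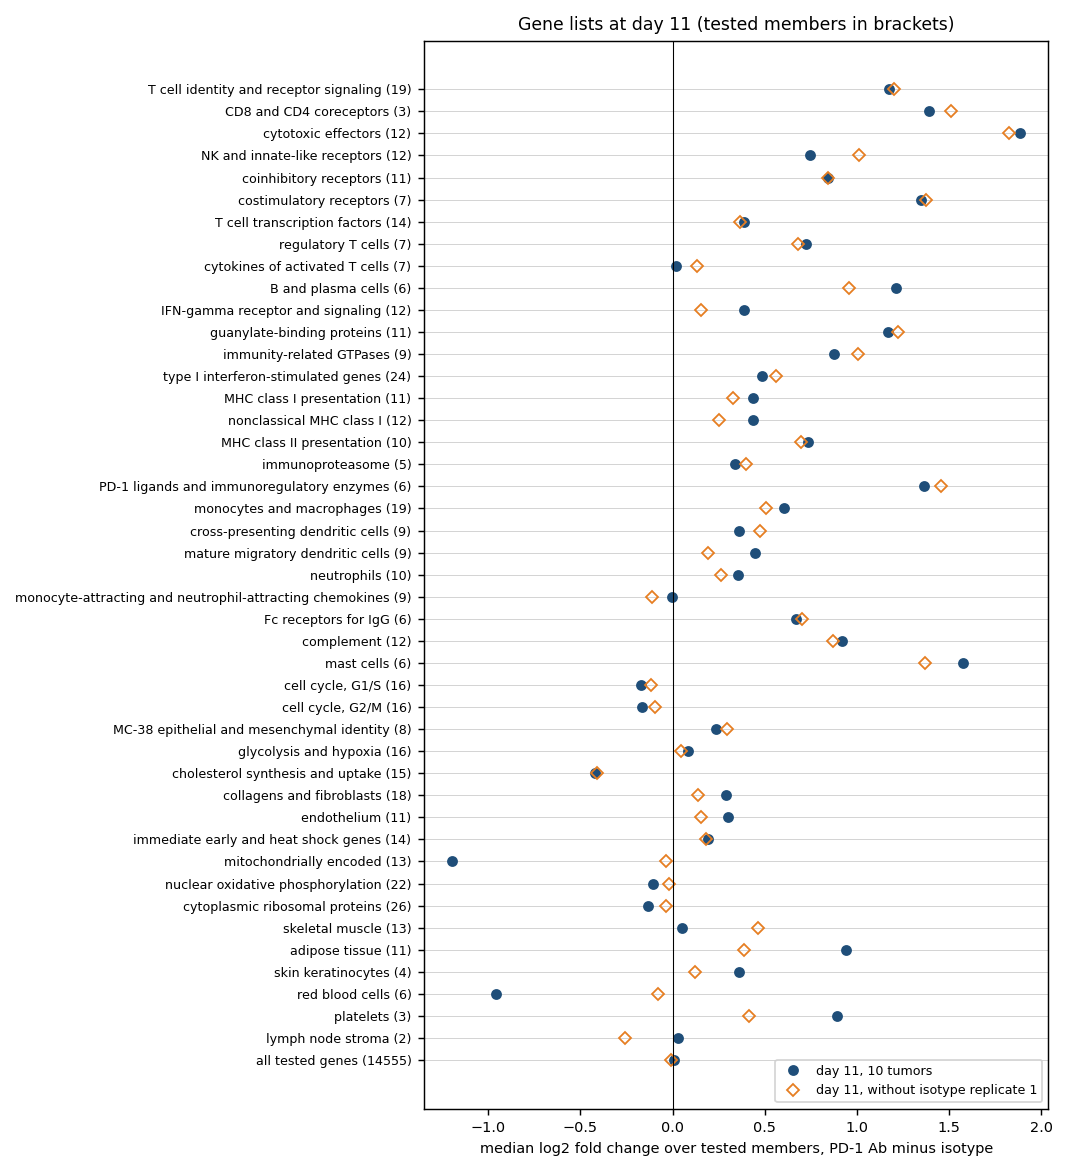
Median log2 fold change, PD-1 Ab minus isotype, over the tested members of gene lists, with all 10 tumors (filled circles) and without isotype replicate 1 (open diamonds). The list of cytotoxic effectors (1.89 and 1.82) lies farthest right in both. PD-1 ligands and enzymes (1.37 and 1.46) come next, together with CD8 and CD4 coreceptors (1.39 and 1.51), mast cells (1.58 and 1.37) and costimulatory receptors (1.35 and 1.375). The mitochondrially encoded genes move from -1.19 to -0.03.

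The lower genes were few and included lipid synthesis. All 15 tested genes of cholesterol synthesis and uptake had a negative log2 fold change, with a median of -0.42 with 10 tumors and -0.41 with 9, against 0.01 and -0.01 for all genes. None passed with 10 tumors in limma, and those that passed with 9 included Cyp51 and Mvd, against 17 lower of all 14601 tested genes. At an unadjusted p under 0.05, 11 were lower with 10 tumors, against 410 of all 14555 tested genes. Cyp51, a demethylase of sterol synthesis, was at 85.4, 67.7, 76.8, 73.4 and 74.2 scaled FPKM in isotype tumors and at 50.5, 52.0, 61.2, 59.2 and 52.7 in PD-1 Ab tumors. Every PD-1 Ab tumor was below every isotype tumor (log2 fold change -0.45, SE 0.09, adjusted p 0.0845, and -0.41, SE 0.07, adjusted p 0.0285 with 9 tumors). Elovl6, an elongase of fatty acids, was at 14.9 ± 1.34 and 10.1 ± 1.601 (SD, n = 5 each, adjusted p 0.119, and 0.0587 with 9 tumors), and Nsdhl, a dehydrogenase of sterol synthesis, at 19.8 ± 2.28 and 13.8 ± 2.03 (SD, n = 5 each, adjusted p 0.143, and 0.0718 with 9). Among the 8 genes with the lowest moderated t, the lowest log2 fold changes were those of Dffb, a nuclease of apoptosis (log2 fold change -0.94, SE 0.18, adjusted p 0.084, and 0.0486 with 9 tumors), and Shisal2b (-0.84, SE 0.14, adjusted p 0.057, and 0.0252 with 9). Acy1, an aminoacylase, was at 10.3 ± 1.35 and 6.67 ± 1.00 (SD, n = 5 each, adjusted p 0.122, and 0.0224 with 9), and Pithd1 and Kif24 passed in neither fit.

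Markers of tumor and stroma gave no member that passed in the 10 tumors, apart from Pecam1. Mki67, a marker of dividing cells, was at 38.2 ± 5.48 and 33.7 ± 3.17 scaled FPKM (SD, n = 5 each, adjusted p 0.655, and 0.601 with 9 tumors). The 16 G1/S genes had a median log2 fold change of -0.17 and the 16 G2/M genes of -0.17, and without isotype replicate 1 these were -0.12 and -0.09. The values were small beside those of the immune lists, and their sign changed for Mki67 with FPKM as deposited (0.081). Col1a1, the main fibrillar collagen, was at 468.3 ± 213.7 and 578.1 ± 172.2 (SD, n = 5 each, adjusted p 0.72, and 0.86 with 9). Of the markers of MC-38 identity, 8 of 12 were tested, and Vim, the mesenchymal filament vimentin, was at 1173 to 1410 in isotype tumors and 1327 to 1439 in PD-1 Ab tumors. The epithelial keratin Krt8 was low, at 0, 0, 0.244, 0 and 0.105 in isotype tumors and 0.0453, 0.865, 1.90, 1.35 and 1.82 in PD-1 Ab tumors. PD-1 Ab replicate 1 lay within the isotype range, and the log2 fold change of Krt8 was 2.69 (SE 0.75, adjusted p 0.222, and 2.62, SE 0.79, adjusted p 0.133 with 9).

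Markers of muscle and adipose tissue varied widely between tumors of a group, and where this RNA came from was not tested. The summed level of 14 skeletal muscle markers ranged from 2.86 to 222.8 scaled FPKM in isotype tumors and from 2.55 to 592.0 in PD-1 Ab tumors, and that of 12 adipose markers from 21.9 to 142.9 and from 17.8 to 336.1. None of the tested members of these lists had an unadjusted p under 0.05, and neither did those of the 12 keratinocyte markers, whose sum ranged from 10.9 to 20.8 and from 17.9 to 21.4. The sum of 8 red blood cell markers ranged from 38.1 to 501.0 and from 42.6 to 137.3. Markers of B and plasma cells included Igkc, the immunoglobulin kappa constant region, which was listed at 0 in isotype replicate 1 and was at 0.862, 0.497, 1.39 and 4.09 in the others, against 9.37, 2.72, 8.22, 22.6 and 11.0 in PD-1 Ab tumors. PD-1 Ab replicate 2 was below isotype replicate 5, and the adjusted p of Igkc was 0.17 with 10 tumors and 0.0657 with 9. The 6 tested mast cell genes had a median log2 fold change of 1.58 (1.37 with 9 tumors), and 0 passed. With 10 tumors, 4 were higher at an unadjusted p under 0.05, against 1037 of all 14555 tested genes. The part of these other cells in the results was not tested.

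The second time point was used to see whether the day 11 values lay in the direction of the later difference. Day 15 had its own 5 isotype and 5 PD-1 Ab tumors, from other mice given 2 doses, and 771 of 15068 genes were called there (5.12%), 737 higher and 34 lower. Of the 737, 701 were tested at day 11, where 684 had a positive log2 fold change (97.6%, against 51.3% of all tested genes) and the median was 0.64. For 161 of them (22.97%, against 2.75%) every PD-1 Ab tumor was above every isotype tumor. Without isotype replicate 1, 691 of 705 were positive, against 47.98% of all tested genes, and 221 did not overlap (31.3%, against 4.44%). In that fit 83 of the 705 were higher at an adjusted p under 0.05, against 149 of all 14601 tested genes (1.02%). Of the 11 called genes, 8 were among the 737. Of the 34 called lower at day 15, 33 were tested at day 11 and 3 had a positive log2 fold change, with a median of -0.45.

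The mean log2 level of the 737 genes was 1.53, 1.78, 1.90, 2.10 and 1.35 in isotype replicates 1 to 5 and 2.10, 2.88, 2.27, 2.50 and 2.60 in PD-1 Ab replicates 1 to 5 at day 11. PD-1 Ab replicate 1 and isotype replicate 4 thus met at the border of the groups, with 2.101 and 2.096. Across 14268 genes tested on both days, the log2 fold changes had a Pearson correlation of 0.579 and a Spearman correlation of 0.525, and of 0.576 and 0.483 over 14364 genes without isotype replicate 1. These are correlations across genes, which are not independent replicates.

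**Figure D4:**
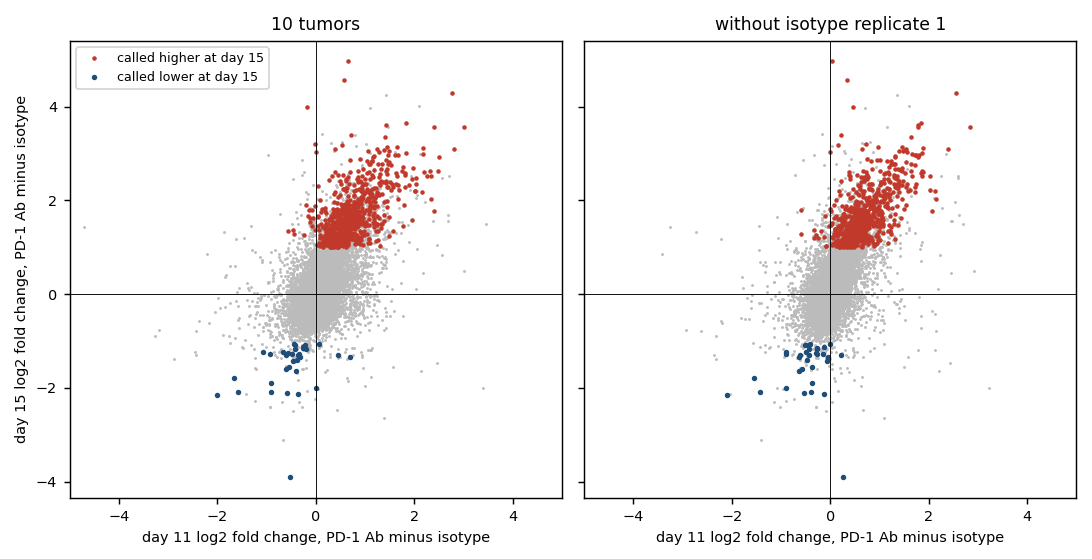
Log2 fold change of each gene, PD-1 Ab minus isotype, at day 11 (x axis) and day 15 (y axis), for all 10 day 11 tumors (left) and without isotype replicate 1 (right). Red points are called higher and blue points called lower at day 15, and most red points lie to the right of 0 and nearer to it at day 11 than at day 15.

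The difference between the 2 days was tested directly as a contrast over the 20 tumors. In limma, 0 of 15335 genes (0%) passed an adjusted p under 0.05, with 1749 at an unadjusted p under 0.05 and a smallest adjusted p of 0.161, and without isotype replicate 1 it was 0 of 15311 (0%), with 2722 and 0.139. The values are therefore given side by side. Cd8a had a log2 fold change of 1.39 at day 11 and 3.07 at day 15, and Ccl5, a chemokine that attracts T cells, 1.10 and 2.46. Pdcd1lg2 had 3.01 and 3.57, Ccl8 2.02 and 2.20, and Il1rn 1.17 and 1.44. For Tarm1 the values were 1.67 and 1.55, for Arg1 2.34 and 2.02, and for Adam8 1.06 and 1.09. F10 had 2.45 at day 11 (1.85 without isotype replicate 1) and 1.05 at day 15, and F7 2.41 (2.08 without it) and 1.77. By list, the median of the T cell genes was 1.17 at day 11 and 2.32 at day 15. That of the cytotoxic effectors was 1.89 and 2.59, and that of the macrophage genes 0.60 and 1.298. Of 19 T cell genes, 17 were called at day 15, against 5.12% of all tested genes. At day 11 it was 0, as for all tested genes (0%), so these counts do not test a difference between the days.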

How the data were processed

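Tumor RNA was sequenced by the authors as stranded, ribosome-depleted libraries with paired 50-base reads, aligned with the Omicsoft aligner to Mouse.B38 and quantified on Ensembl R86 genes. The deposited values are FPKM, computed by the authors, so counts and depth are not held. Ratios of low values placed the depth of 9 tumors within 0.700 to 1 of isotype replicate 2. That of isotype replicate 1 could not be read.

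Deposited FPKM of 48795 genes were scaled by median-of-ratios, log2-transformed after adding 0.1, kept at a mean of 0.5 in either group, and fitted with limma 3.58.1 in R 4.3.3 (eBayes with a trend, Benjamini-Hochberg adjustment). The fold changes are on the log2(value + 0.1) scale, which understates changes of low genes. Symbols came from GENCODE M21 (99.1% matched). The code was tested on simulated data.

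Named genes were those called in either fit, the 8 highest and 8 lowest moderated t among protein-coding genes with a mean of at least 1, a panel of 30 genes, and the extremes of each gene list. Other genes, named where few of a list passed, were chosen after their values were seen. Members and lists were chosen with earlier results of these data known. Replicate numbers did not pair the tumors: deviations of same-numbered tumors correlated at -0.14 to 0.14. Labels do not state that tumors came from separate cages or extractions, so p-values measure the spread between these tumors. Some genes and lists are not reported here.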

Additional observations from a re-analysis of the deposited data

Results flagged for a closer look

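In isotype replicate 1 at day 11, mitochondrial genes held 54.6% of the FPKM, farther from the other 4 isotype tumors than Dixon's limit for 5 values. PD-1 Ab replicate 4, at 4.44%, was also beyond that limit within its group, although the group spanned 3.62% to 4.44%. Among the named genes, isotype replicate 1 stood apart for AA467197 (47.1 scaled FPKM), Bst1 (7.03) and F10 (listed at 0). Isotype replicate 5 stood apart for Gzmb (3.47) and Cxcl10 (80.7). For Serping1, isotype replicate 4 was at 34.3, against 22.7 to 23.2 in the other isotype tumors. Chance alone marks about 1 group in 20 by this rule.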

How the results depend on the processing

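The count of genes called at day 11 (0 with 10 tumors) became 2 with upper-quartile scaling, 5 with a pseudocount of 1, 22 with array weights (which gave isotype replicate 1 a weight of 0.0606), 4 with the 4 antibody groups in 1 fit, 7 with FPKM as deposited and isotype replicate 1 left out, and 15 at an adjusted p under 0.05 with no fold limit. Leaving out 1 tumor gave 0 to 11, with 11 without isotype replicate 1, 1 without isotype replicate 5 and 0 without any other. With the replicate block the count was 0. The count of 11 without isotype replicate 1 fell to 0 with the replicate block and 0 with the identifier run as a covariate, and ranged from 1 to 15 when another tumor was also left out: 1, 4, 15 and 4 without isotype replicates 2, 3, 4 and 5, and 9, 4, 7, 5 and 2 without PD-1 Ab replicates 1 to 5. All 11 genes stayed at an adjusted p under 0.05 in each fit that left out another tumor, as did 7 with the replicate block and 6 with the identifier run. These alternatives to the fit of 9 tumors were chosen after seeing the data. Genes above in every PD-1 Ab tumor numbered 441 to 680 when 1 tumor was left out (649 without isotype replicate 1, 680 without PD-1 Ab replicate 1), and genes below 175 to 370, or 9 with FPKM as deposited and 87 with upper-quartile scaling. Day 15 gave 359 calls with the replicate block. The replicate block changed none of the 0 counts of the day contrast. All 15 genes at an adjusted p under 0.05 stayed positive in 24 of 24 alternatives. They were picked from these same tumors, so their sign could hardly turn. Each passed an adjusted p under 0.05 in limma in 6 (Ctsb) to 18 (Ccl8) of the 24 alternatives. The sign of S100a8 turned without isotype replicate 2 (0.27), 3 (0.011) or 5 (0.59) or PD-1 Ab replicate 2 (0.44), 3 (0.052) or 4 (0.031) (-0.89 to 0.59 over tumors left out, and -1.16 within 1 identifier run), and that of Mki67 with FPKM as deposited (0.081) or with mitochondrial genes removed (0.027). The cause of these changes was not tested.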
